A study of Mus musculus with 8 samples.

Results

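The cell cycle and proliferation genes described here are 37 genes of the machinery that copies and divides a cell, measured in gastrocnemius (GAS) muscle with and without knockdown of *Mytho*. They were taken by gene symbol, from G1 cyclins to mitotic kinases, under a rule with no threshold on a measured value, and all 37 were found among the 22206 gene-level probe sets of the array. Of the 3 probe sets of *Rb1*, the brightest by mean log2 signal was kept. The muscles came from male C57/Bl6j mice, given as 14 weeks of age in the labels. The right GAS, along with the tibialis anterior of that leg, had received an adeno-associated virus (AAV, serotype 1) whose U6 promoter drives a short hairpin RNA against D230025D16Rik, the gene that encodes MYTHO. The contralateral leg had received an AAV with a scrambled hairpin, and muscles were taken 3 weeks after injection, giving 4 AAV sh-RNA MYTHO (MYTHO-KD) and 4 AAV sh-RNA scrmb arrays. Both groups therefore carried a virus and a hairpin, no muscle without a virus was on the arrays, and U6 is active in most cell types and not only in fibres. Leg side and hairpin cannot be told apart. Numbers in the column names tie each scrmb muscle to the MYTHO-KD muscle of the same animal, and the 4 animals are called A, B, C and D here.

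A cell enters division when D-type cyclins with Cdk4 or Cdk6, and then E-type cyclins with Cdk2, phosphorylate the retinoblastoma protein and release E2F factors, which switch on the genes for DNA replication. Cyclin A and cyclin B with Cdk1 then drive mitosis, and CDK inhibitors such as p27 hold the cycle back. Muscle fibres are multinucleated and their nuclei have left the cycle for good, so in adult muscle the genes of S phase and mitosis are mostly expressed by the rare dividing cells between fibres, such as activated satellite cells, endothelial, immune and connective tissue cells. Several of these genes, among them the D-type cyclins, *Rb1* and *Cdkn1b*, are also transcribed in cells that do not divide. In a whole-muscle extract, fewer cells of a type and less RNA per cell cannot be told apart.

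Many cell cycle genes share short promoter strings. E2F-type sites govern genes of S phase, and CCAAT boxes together with the cell cycle genes homology region (CHR) govern genes of mitosis. Promoter windows of 300 bases, from 250 before to 50 after the start in RefSeq for GRCm38.p6 (mm10), were matched to 30 of the 37 genes, in 34 windows. The windows of *Cdk1*, *Top2a* and *Cdkn2c* are shown because the first carries all 3 kinds of string, the second carries repeated CCAAT and CHR strings, and the third belongs to the CDK inhibitor with the lowest p-value among the brakes. All 3 lie on the minus strand, at chr10:69352863-69353162, chr11:99024140-99024439 and chr4:109666707-109667006. They are printed 5′ to 3′, with every string found on either strand in capitals.
Cdk1: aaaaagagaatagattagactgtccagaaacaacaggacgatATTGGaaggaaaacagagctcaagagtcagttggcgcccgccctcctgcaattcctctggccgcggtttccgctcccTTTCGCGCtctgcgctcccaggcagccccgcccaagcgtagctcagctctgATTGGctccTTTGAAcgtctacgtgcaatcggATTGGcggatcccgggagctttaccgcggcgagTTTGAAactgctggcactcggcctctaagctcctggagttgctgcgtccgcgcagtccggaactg
Top2a: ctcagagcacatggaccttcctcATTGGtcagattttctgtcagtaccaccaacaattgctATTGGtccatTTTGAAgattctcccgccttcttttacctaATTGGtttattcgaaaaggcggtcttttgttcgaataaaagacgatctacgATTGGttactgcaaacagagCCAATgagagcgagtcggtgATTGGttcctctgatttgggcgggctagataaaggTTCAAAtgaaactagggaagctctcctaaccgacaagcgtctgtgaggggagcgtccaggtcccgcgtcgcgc
Cdkn2c: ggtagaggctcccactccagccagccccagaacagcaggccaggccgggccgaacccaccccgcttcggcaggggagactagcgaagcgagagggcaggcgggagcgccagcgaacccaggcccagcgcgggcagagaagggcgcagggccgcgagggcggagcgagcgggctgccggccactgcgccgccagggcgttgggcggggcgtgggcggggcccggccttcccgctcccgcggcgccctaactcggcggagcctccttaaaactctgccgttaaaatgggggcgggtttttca

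The *Cdk1* window held 1 E2F-type string, 2 CHR strings and 3 CCAAT boxes, and the *Top2a* window held 0, 2 and 6. None was found in the *Cdkn2c* window shown. A second *Cdkn2c* window, not shown, held 1 CCAAT box. The letters searched, on both strands, were TTTCCCGC, TTTGGCGC, TTTCGCGC and TTTGCCGC for E2F, TTTGAA for CHR and CCAAT, and no strings overlapped in these windows. E2F-type strings were in 20.6% of the 34 windows and in 2.26% of all 32851 RefSeq windows of the same length, CHR strings in 29.4% and 17.9%, and CCAAT boxes in 73.5% and 37.4%. A match is a description of letters and not a site of binding.

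The knockdown was checked first. In the order of animals A to D, D230025D16Rik had log2 signals of 11.35, 11.31, 10.78 and 11.05 in scrmb and of 8.16, 8.20, 8.80 and 8.08 in MYTHO-KD muscles. Its log2 fold change was -2.81, which left 14.2% of the signal, with an adjusted p of 0.00044 by limma. Array medians lay between 6.39 and 6.47. On the first principal component over all probe sets, with 28.2% of the variance, the scrmb muscle of animal D scored 3.31, between the other scrmb muscles at -45.4 to -25.7 and the MYTHO-KD muscles at 11.7 to 40.4. Of 8 fibre markers, *Acta1*, *Atp2a1* and *Myh4* were at the ceiling of the scale on every array, and *Myh1*, the lowest, read 16.06 to 17.02 in scrmb and 16.75 to 17.68 in MYTHO-KD muscles (log2 fold change 0.70, unadjusted p = 0.0178 by limma).

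The 37 genes showed no difference between the groups that passed the test across all probe sets. None passed an adjusted p of 0.05, a threshold passed by 0.027% of all probe sets in either direction, 0.00901% higher and 0.018% lower. At an unadjusted p under 0.05, *Ccnd1* and *Mcm4* had higher and *Cdkn2c* had lower signals in MYTHO-KD muscle, which is 2 and 1 of 37 genes against 4.81% and 7.58% of all probe sets. None reached a 2-fold difference with an unadjusted p under 0.05, against 0.261% of all probe sets higher and 1.25% lower. The median log2 fold change was 0.002, beside -0.005 over all probe sets, with 19 genes above and 18 below 0. The values ran from -0.64 for *Bub1b*, a kinase of the spindle checkpoint, to 0.63 for *Ccnd1*, cyclin D1. For 32 of the 37 genes the 95% interval of the log2 fold change lay within 1 of 0, so that a 2-fold difference was outside it. The other 5, *Ccnd1*, *Cdk2*, *Mcm4*, *Ccna2* and *Bub1b*, had intervals that reached further. The counts at an unadjusted p under 0.05 rested on single arrays. They were 3 higher and 1 lower without the scrmb muscle of animal D, 1 higher without the scrmb muscle of C or the MYTHO-KD muscle of B, 0 lower without the scrmb muscle of B or the MYTHO-KD muscle of D, and 2 lower without either muscle of A. No gene passed the adjusted test in any of these fits. Leaving out 1 array moved the log2 fold change by over 1.5 times, or across 0, for 29 of the 37 genes, and did not for *Birc5*, *Ccnd1*, *Ccnd3*, *Cdkn2a*, *Cdkn2c*, *Mcm3*, *Mcm4* and *Pcna*.

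**Figure D1:**
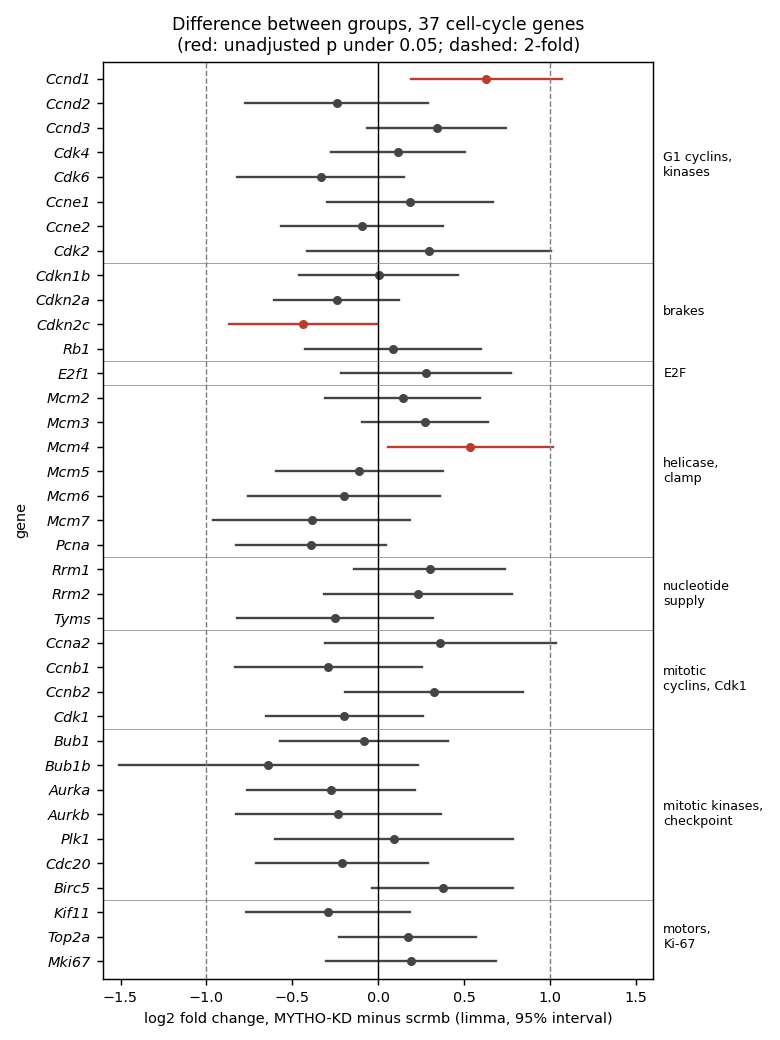
Points are log2 fold changes (MYTHO-KD minus scrmb) and bars are 95% intervals from limma for the 37 genes, grouped by role. Values run from -0.64 for *Bub1b* to 0.63 for *Ccnd1*, and most bars include 0.

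The mean log2 signal over the 37 genes was 6.59, 6.58, 6.62 and 6.69 in scrmb and 6.63, 6.65, 6.63 and 6.57 in MYTHO-KD muscles. The group means were 6.62 ± 0.05 and 6.62 ± 0.04 (SD, n = 4 each), and the highest and lowest arrays were the scrmb and the MYTHO-KD muscle of the same animal, D. No single array held the extremes. The array with most top values, the MYTHO-KD muscle of animal B, was highest for 8 genes, and the array with most bottom values, the scrmb muscle of animal C, was lowest for 8.

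Among the G1 cyclins and their kinases, *Ccnd1* had the clearest difference of all 37 genes. It encodes cyclin D1, the partner of Cdk4 and Cdk6 that links growth signals to the cycle, and lies at chr7:144929931-144939831. In scrmb muscles the log2 signal was 7.56, 7.21, 7.55 and 7.53, and in MYTHO-KD muscles 8.17, 7.64, 8.42 and 8.14. The groups did not overlap, and the signal was higher in the MYTHO-KD leg of 4 of 4 animals, by 0.61, 0.43, 0.87 and 0.61. The mean was 7.46 ± 0.17 in scrmb and 8.09 ± 0.33 in MYTHO-KD (SD, n = 4 each). The log2 fold change was 0.63 (SE 0.20, 95% interval 0.19 to 1.07), a 1.55-fold difference, with an unadjusted p of 0.00874 by limma. After adjustment over all probe sets the p was 0.237, so the difference did not pass. The row also names the microRNA gene *Mir3962*, which this probe set cannot separate from *Ccnd1*.

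The other D-type cyclins did not follow a common direction. *Ccnd3*, cyclin D3, had a log2 fold change of 0.34 (adjusted p = 0.493 by limma). *Ccnd2*, cyclin D2, had a log2 fold change of -0.24 (adjusted p = 0.742), and its MYTHO-KD muscles read 8.83 in animal A but 7.83, 7.88 and 7.69 in animals B to D. Without the muscle at 8.83 the log2 fold change of *Ccnd2* was -0.50 with an unadjusted p of 0.0201. The kinases that D-type cyclins activate had log2 fold changes of 0.115 for *Cdk4* and -0.335 for *Cdk6*. Without the scrmb muscle of animal D, *Cdk6* and *Ccnd3* stood at -0.49 and 0.445, with an unadjusted p of 0.045 and 0.0392 by limma. *Cdk6* was -0.20 without the scrmb muscle of A, and *Ccnd3* was 0.435 without the MYTHO-KD muscle of D, with an unadjusted p of 0.048 by limma. Further along the cycle, the values were 0.185 for *Ccne1*, -0.09 for *Ccne2* and 0.30 for *Cdk2*, whose 95% interval was -0.41 to 1.01. The median over the 8 genes of this role was 0.15.

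The brakes comprised 3 CDK inhibitor genes and *Rb1*. *Cdkn2c* encodes p18, an inhibitor of Cdk4 and Cdk6, and lies at chr4:109660876-109666756. The scrmb muscles had log2 signals of 6.41, 6.51, 6.60 and 6.75, and the MYTHO-KD muscles 6.47, 5.79, 6.33 and 5.93. The MYTHO-KD muscle of animal A lay inside the scrmb range, while those of the other 3 animals lay below all scrmb muscles. The means were 6.57 ± 0.14 and 6.13 ± 0.32 (SD, n = 4 each). This gave a log2 fold change of -0.44 (SE 0.20, 95% interval -0.87 to -0.01), with an unadjusted p of 0.0473 and an adjusted p of 0.394 by limma. With the animal as a block the unadjusted p was 0.0664, and it was also above 0.05 without any of 5 of the 8 arrays, at 0.0674 and 0.0815 without the scrmb muscles of animals B and C, 0.11 without that of D, and 0.136 and 0.117 without the MYTHO-KD muscles of B and D.

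The locus of *Cdkn2a* encodes the CDK inhibitor p16Ink4a and the p53 regulator p19Arf, which this probe set does not separate. It read 3.85, 3.90, 3.80 and 3.81 in scrmb and 3.38, 3.50, 3.76 and 3.75 in MYTHO-KD muscles, on a scale whose lowest value was 2.38. The groups did not overlap, by a gap of 0.04 between 3.80 and 3.76, and 1 of 37 genes without overlap in this direction stands beside 3.87% of all probe sets. *Cdkn2a* had a log2 fold change of -0.24 with an adjusted p of 0.606 by limma. *Ccnd1* was the 1 gene without overlap in the higher direction, beside 2.59% of all probe sets.

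*Cdkn1b* encodes p27, which holds cells out of the cycle. It read 9.15, 9.42, 9.21 and 9.92 in scrmb and 9.22, 9.67, 9.27 and 9.55 in MYTHO-KD muscles. The groups overlapped, with a log2 fold change of 0.00 (95% interval -0.46 to 0.46). *Rb1*, the retinoblastoma gene, read 10.57, 10.50, 10.50 and 10.01 in scrmb and 11.01, 10.65, 10.16 and 10.10 in MYTHO-KD muscles, with a log2 fold change of 0.085 (95% interval -0.43 to 0.60). Its other probe sets gave -0.31 and -0.04, so the direction for *Rb1* depended on the probe set. *E2f1*, the activating E2F factor that the retinoblastoma protein holds in check, had a log2 fold change of 0.28 (adjusted p = 0.675 by limma), and its signals of 3.10 to 3.98 lay near the lowest values of the scale.

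The replicative helicase and clamp contained *Mcm4*, the second gene with higher signals at the unadjusted threshold. Mcm2 to Mcm7 form the ring that unwinds DNA at the replication fork, and *Mcm4* lies at chr16:15623897-15637400. The signal on the log2 scale was 6.25, 6.19, 5.63 and 6.48 in scrmb and 6.42, 6.99, 6.52 and 6.77 in MYTHO-KD muscles. The ranges overlapped, since the MYTHO-KD muscle of animal A at 6.42 lay below the scrmb muscle of animal D at 6.48, but within each animal the MYTHO-KD leg was higher, by 0.17, 0.80, 0.89 and 0.29. The means were 6.14 ± 0.36 and 6.68 ± 0.26 (SD, n = 4 each), with a log2 fold change of 0.54 (SE 0.22, 95% interval 0.06 to 1.02), an unadjusted p of 0.0307 and an adjusted p of 0.349 by limma. Without the scrmb muscle of animal C, the lowest of the 8, the log2 fold change was 0.37 with an unadjusted p of 0.102. Without the MYTHO-KD muscles of animals B or D the unadjusted p was 0.0889 or 0.0658.

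Differences between *Mcm4* and its helicase partners were not tested. The partners' log2 fold changes were 0.14 for *Mcm2*, 0.27 for *Mcm3*, -0.11 for *Mcm5*, -0.20 for *Mcm6* and -0.39 for *Mcm7*, none with an unadjusted p under 0.05 by limma. *Mcm3* was higher in the MYTHO-KD leg of 4 of 4 animals. The row of *Mcm7* also names *Mir93* and *Mir25*, which lie within the gene, and its value leaned on the scrmb muscle of animal C at 9.88, without which the log2 fold change was -0.125.

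*Pcna* encodes the sliding clamp that tethers DNA polymerases and is a common stain for proliferating cells. Its probe set read 11.46, 11.88, 12.16 and 11.63 in scrmb and 11.61, 11.41, 11.12 and 11.43 in MYTHO-KD muscles. It was lower in the MYTHO-KD leg of 3 of 4 animals, with animal A the exception. This gave a log2 fold change of -0.39 (95% interval -0.83 to 0.05) with an unadjusted p of 0.0761 and an adjusted p of 0.461 by limma. Without the scrmb muscle of animal A it was -0.50 with an unadjusted p of 0.0359, and without that of animal C it was -0.26 with an unadjusted p of 0.217. *Pcna* and *Mcm4*, both of S phase, thus lay on opposite sides of 0. The genes of nucleotide supply gave 0.30 for *Rrm1* and 0.23 for *Rrm2*, the subunits of ribonucleotide reductase, and -0.25 for *Tyms*, thymidylate synthase. The value of *Rrm2* rested on the MYTHO-KD muscle of animal D and was -0.04 without it.

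**Figure D2:**
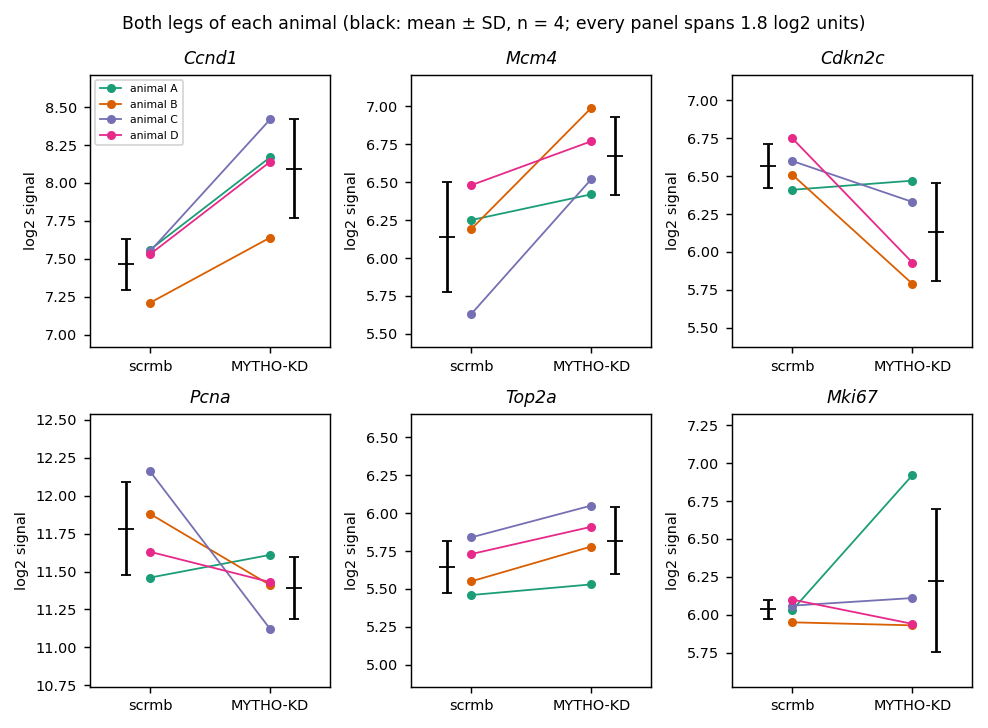
Each panel shows 1 gene, with the log2 signal of the scrmb and MYTHO-KD muscle of each animal joined by a line. Black bars are the group mean ± SD (n = 4). For *Ccnd1*, *Mcm4* and *Top2a* the MYTHO-KD point is the higher one in 4 of 4 animals, while for *Cdkn2c*, *Pcna* and *Mki67* the animals differ in direction.

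The mitotic cyclins and Cdk1 showed no common direction. *Cdk1*, the kinase of mitotic entry, had log2 signals of 3.26, 2.67, 2.90 and 3.47 in scrmb and 2.81, 2.99, 3.06 and 2.65 in MYTHO-KD muscles. These lay close to the lowest value in the table, 2.38, and the table carries no call of detection, so whether *Cdk1* was above background could not be read from it. Its log2 fold change was -0.20 (95% interval -0.65 to 0.26). *Ccnb1*, cyclin B1, read 5.73, 6.04, 5.12 and 5.40 in scrmb and 5.43, 4.78, 5.70 and 5.22 in MYTHO-KD muscles, with a log2 fold change of -0.29 (95% interval -0.84 to 0.26). *Ccnb2* and *Ccna2* had values of the opposite sign, 0.325 and 0.36. The 4 scrmb muscles spread from 3.91 to 5.55 for *Ccna2* against 4.70 to 5.12 in MYTHO-KD. Without the scrmb muscle of animal A the log2 fold change of *Ccna2* was 0.68, with an unadjusted p of 0.0137 by limma, and without that of C it was 0.14. *Ccnb2* stood at 0.19 without the scrmb and at 0.16 without the MYTHO-KD muscle of animal B, and *Cdk1* and *Ccnb1* likewise ranged from -0.33 to -0.07 and from -0.44 to -0.12 when 1 array was left out.

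Among mitotic kinases, the spindle checkpoint and the anaphase-promoting complex, 5 of 7 genes had values below 0, and none passed a test. *Bub1b* had the lowest log2 fold change of the 37 genes with all arrays and also the highest standard error, 0.399. Signals of *Bub1b* were 5.23, 4.90, 4.11 and 5.93 in scrmb and 3.93, 5.28, 3.73 and 4.67 in MYTHO-KD muscles, so that both groups covered more than a 2-fold range. The log2 fold change was -0.64 (95% interval -1.51 to 0.23) with an adjusted p of 0.555 by limma. Without the scrmb muscle of animal D the log2 fold change of *Bub1b* was -0.34, less negative than those of *Mcm7* (-0.50) and *Cdk6* (-0.49), and without the scrmb muscle of C or the MYTHO-KD muscle of B it was -0.95 or -0.93, with an unadjusted p of 0.0284 or 0.0348. Its partner *Bub1* had a log2 fold change of -0.08. The Aurora kinase genes *Aurka* and *Aurkb* gave -0.275 and -0.23, *Cdc20*, an activator of the anaphase-promoting complex, gave -0.21, and *Plk1*, a kinase of mitotic entry and spindle assembly, gave 0.09.

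*Birc5* encodes survivin, a subunit of the chromosomal passenger complex. Its log2 signal was 5.38, 5.35, 5.56 and 5.16 in scrmb and 5.38, 5.94, 5.92 and 5.71 in MYTHO-KD muscles. Animal A had equal signals in its legs, and the other 3 animals had higher signals in the MYTHO-KD leg. The log2 fold change was 0.375 (95% interval -0.03 to 0.78) with an unadjusted p of 0.0694 and an adjusted p of 0.449 by limma. *Aurkb*, which acts in the same complex, had a value of the opposite sign.

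Neither of the markers often used to score proliferation, *Mki67* and *Top2a*, passed a test. *Mki67* encodes Ki-67, which coats chromosomes of dividing cells. Signals of *Mki67* were 6.03, 5.95, 6.06 and 6.10 in scrmb and 6.92, 5.93, 6.11 and 5.94 in MYTHO-KD muscles. The MYTHO-KD muscle of animal A stood above the rest, and the log2 fold change of 0.19 (95% interval -0.31 to 0.69) was -0.04 without it. *Top2a*, the topoisomerase that untangles chromosomes before division, read 5.46, 5.55, 5.84 and 5.73 in scrmb and 5.53, 5.78, 6.05 and 5.91 in MYTHO-KD muscles. The MYTHO-KD leg was higher in 4 of 4 animals, by 0.07, 0.23, 0.21 and 0.18, while the log2 fold change of 0.17 had a 95% interval of -0.23 to 0.57 and an adjusted p of 0.758 by limma. In all, 4 of the 37 genes, *Ccnd1*, *Mcm3*, *Mcm4* and *Top2a*, were higher in 4 of 4 animals and 1, *Cdkn2a*, was lower, against 8.94% and 10.8% of all probe sets. *Kif11*, the motor that separates the spindle poles, had a log2 fold change of -0.29.

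With the animal as a block, *Ccnd1* and *Mcm4* remained under an unadjusted p of 0.05, at 0.00688 and 0.026, and no gene was lower, against 4.94% and 7.66% of all probe sets. No gene of the 37 passed an adjusted p of 0.05 in this fit, in which 0.00901% of all probe sets did. By promoter string, the median log2 fold change was -0.20 for the 7 genes with an E2F-type string and 0.09 for the 23 without, while the 10 genes with a CHR string had -0.05 and the 20 without -0.04. Of the 24 genes with a CCAAT box the median was -0.10, against 0.15 for the 6 without. These medians were not tested. *Ccnd1* and *Mcm4* were among the 7 genes without a window.

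A further 120 cell cycle genes, from origin licensing to cytokinesis, were all found on the array. None passed an adjusted p of 0.05 by limma. At an unadjusted p under 0.05, 5 of the 120 were higher and 4 lower, against 4.81% and 7.58% of all probe sets, and the median log2 fold change was 0.068, with 103 of 120 intervals within 1 of 0. These counts also rested on single arrays: without the scrmb muscle of animal C, that of D or the MYTHO-KD muscle of D, 9, 8 or 11 genes were higher, and without the scrmb muscle of A, C or D, or the MYTHO-KD muscle of A or C, 2, 1, 9, 1 or 1 were lower. With the animal as a block 5 were higher and 2 lower, against 4.94% and 7.66% of all probe sets, and the genes differed. Groups did not overlap for 3 genes in the higher and 2 in the lower direction, against 2.59% and 3.87% of all probe sets. In the limma fit with the animal as a block, *Cdkn2d*, *Pold1* and *Cdc23* had an unadjusted p of 0.0575, 0.0547 and 0.0636. They no longer met the threshold, and *Cdkn1a* did. The higher genes included *Kif4*, a chromosome motor of mitosis, with log2 signals of 4.84, 4.67, 4.28 and 4.90 in scrmb and 5.24, 5.37, 5.70 and 5.26 in MYTHO-KD muscles. The groups did not overlap for *Kif4*, and its log2 fold change was 0.72 (adjusted p = 0.175). *E2f4*, a repressive E2F factor of resting cells, read 9.67, 9.42, 8.88 and 9.65 in scrmb and 10.19, 10.25, 9.98 and 9.99 in MYTHO-KD muscles, again without overlap, with a log2 fold change of 0.70 (adjusted p = 0.213). The third gene without overlap and higher was *Lin9*, a subunit of the DREAM and MuvB complexes, with a log2 fold change of 0.37 (unadjusted p = 0.052). It was named after its values were seen.

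The remaining higher genes were *Nuf2* and *Spc25*, both subunits of the Ndc80 complex that binds microtubules at the kinetochore, and *Cdkn2d*, which encodes the CDK inhibitor p19Ink4d. Their log2 fold changes were 0.75, 0.44 and 0.48. *Nuf2* read 4.41 to 5.62 in scrmb and 5.62 to 6.11 in MYTHO-KD muscles, *Spc25* 5.47 to 5.90 and 5.84 to 6.28, and *Cdkn2d* 6.10 to 6.90 and 6.83 to 7.26. The adjusted p was 0.272, 0.362 and 0.385 by limma. *Spc24*, the partner of *Spc25* in that complex, lay on the other side, at 6.10 to 6.24 in scrmb and 5.54 to 6.04 in MYTHO-KD muscles without overlap, with a log2 fold change of -0.25 (unadjusted p = 0.181). It too was named after its values were seen.

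The 4 lower genes were *Cdc6*, which loads the Mcm ring onto origins, *Pold1*, the catalytic subunit of DNA polymerase delta, *Cdc23*, a subunit of the anaphase-promoting complex, and *Tacc3*, a spindle protein. *Cdc6* read 5.39, 5.25, 4.62 and 5.0 in scrmb and 4.36, 4.25, 4.90 and 3.78 in MYTHO-KD muscles, with a log2 fold change of -0.74 (adjusted p = 0.266 by limma). Animal C was the exception, with the higher signal in its MYTHO-KD leg. The log2 fold changes of *Pold1*, *Cdc23* and *Tacc3* were -0.47, -0.46 and -0.555, and the groups did not overlap for *Pold1*. *Cdkn1a*, which encodes the p53-responsive inhibitor p21, read 10.36, 10.92, 9.73 and 9.61 in scrmb and 11.07, 11.37, 10.08 and 10.58 in MYTHO-KD muscles. The spread within the groups was wide, with SDs of 0.607 and 0.566, and the MYTHO-KD leg was higher in 4 of 4 animals. The log2 fold change of *Cdkn1a* was 0.62. Its unadjusted p by limma was 0.0868 without and 0.01 with the animal as a block, and its adjusted p 0.484 and 0.248. *Foxm1*, the transcription factor of mitotic genes, had a log2 fold change of -0.04 (unadjusted p = 0.874).

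**Figure D3:**
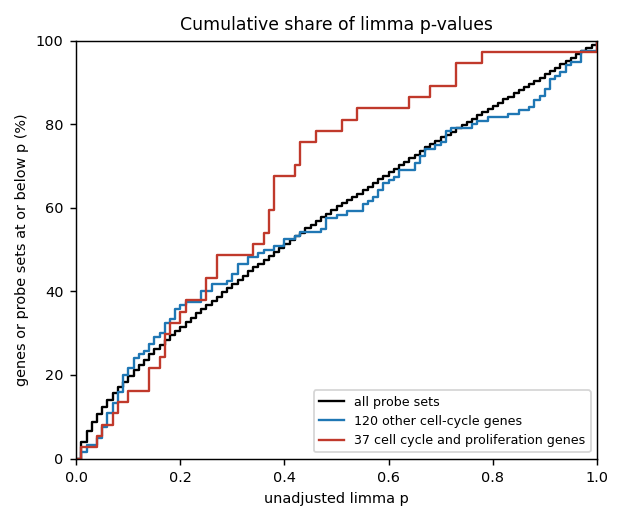
Lines give the percentage of the 37 genes, of the 120 further cell cycle genes and of all 22206 probe sets with an unadjusted limma p at or below the value on the x axis. At p of 0.05 the lines stand at 8.11%, 7.5% and 12.4%.

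Markers of the cells that could carry these transcripts were read on the same arrays. All 6 endothelial markers had log2 fold changes above 0, from 0.22 for *Cdh5* to 0.86 for *Tek*, and their mean log2 signal was 9.58 to 10.04 in scrmb and 10.25 to 10.38 in MYTHO-KD muscles, without overlap. *Tek* and *Pecam1* (0.45) had an unadjusted p under 0.05, at 0.00606 and 0.0369, and no marker passed the adjusted test. Of 8 satellite cell and myoblast markers, 7 lay above 0. *Myog*, the factor of terminal myoblast differentiation, and *Cdh15*, M-cadherin, had log2 fold changes of 0.65 and 0.51 (unadjusted p = 0.0204 and 0.0305), while *Pax7*, the defining marker of satellite cells, had 0.00. The mean of this list was 5.45 to 5.73 in scrmb and 5.56 to 6.06 in MYTHO-KD muscles. The part of these cells in the signals of *Ccnd1*, *Mcm4* and the other genes was not tested.

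Immune markers did not reach the unadjusted threshold without a block. At an unadjusted p under 0.05 by limma, 0 of 8 macrophage, 0 of 8 T and NK cell, 0 of 6 B and plasma cell and 0 of 5 neutrophil markers did so, and the mean of the macrophage list was 6.47 to 6.89 in scrmb and 6.60 to 6.86 in MYTHO-KD muscles. With the animal as a block, the macrophage marker *Cd68* (log2 fold change 0.535, higher in 3 of 4 animals) had an unadjusted p of 0.0332 and the T cell marker *Cd4* (-0.415, lower in 4 of 4 animals) one of 0.0433. Of 6 fibroblast markers, 2 lay above 0, *Col3a1* at 0.42, with within-animal differences of 1.89, 0.01, -0.06 and -0.15, and *Lum* at 0.255, and 4 below, of which 1 met the unadjusted threshold. This was *Dcn*, decorin, with a log2 fold change of -0.595 (unadjusted p = 0.0085 by limma). Schwann cell markers averaged 8.52 in the scrmb muscle of animal C and 6.85 to 7.55 in the other 7 muscles. That muscle also had the highest signals of *Pcna* and *Mcm7* and the lowest of *Mcm4*, and the part of nerve cells in these values was not tested. Adipocyte markers were highest in the MYTHO-KD muscle of animal A for 5 of 5 genes, with a list mean of 11.57 against 6.80 to 10.12 in the other 7 muscles, and this muscle also held the highest signals of *Mki67* and *Ccnd2*. Red blood cell markers averaged 15.23 in the MYTHO-KD muscle of animal D, which held the highest signal of *Rrm2*, and 11.95 to 14.14 in the others. The part of either cell type in these values was not tested.

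**Figure D4:**
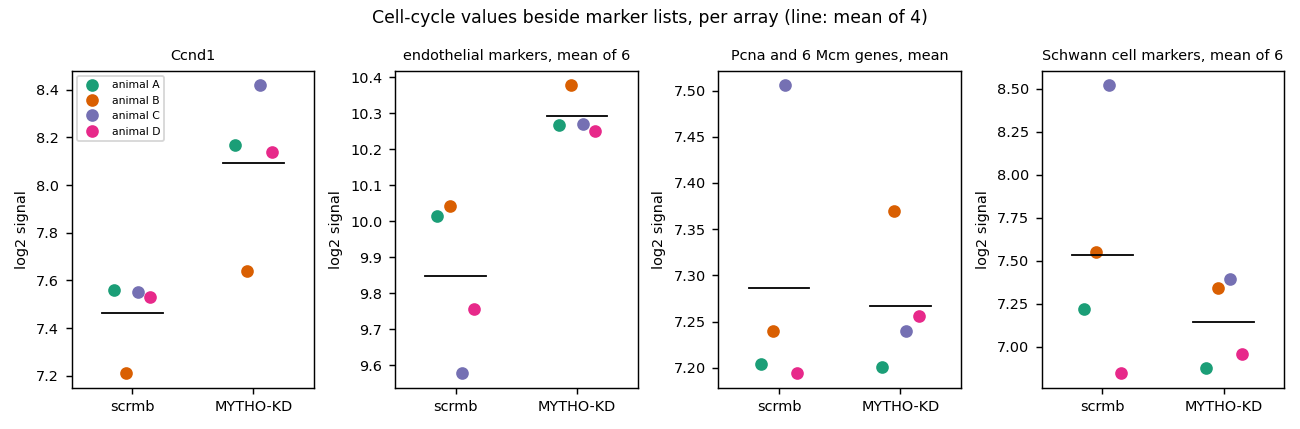
Log2 signals on the 8 arrays, 4 scrmb and 4 MYTHO-KD, for *Ccnd1*, for the mean of 6 endothelial markers, for the mean of *Pcna* and the 6 Mcm genes, and for the mean of 6 Schwann cell markers. The groups do not overlap for *Ccnd1* and the endothelial markers (9.58 to 10.04 and 10.25 to 10.38), and the scrmb muscle of animal C has the highest Schwann cell mean, 8.52, and the highest mean of *Pcna* and the Mcm genes, 7.506.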

How the data were processed

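RNA of 8 GAS muscles was isolated with Trizol and, after biotin labelling, read on Clariom S Mouse arrays. The authors deposited log2 signals per gene-level probe set, computed in the Transcriptome Analysis Console 4.0.1 by SST-RMA (background correction, quantile normalization and median polish), with annotation release 36 on mm10. The signals run from 2.38 to a ceiling of 19.93, at which 18 probe sets lie on all arrays, and 3 rows have no gene symbol. The authors' columns of group averages, folds, p-values and false discovery rates were not used.

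Groups were compared without a block by lmFit and eBayes of limma 3.58.1 in R 4.3.3 over all 22206 probe sets (two-sided, Benjamini-Hochberg adjustment over all). The number of arrays, 4 per group, limits the precision. Each p-value sets a difference against the spread between these muscles, moderated over all probe sets. The unblocked fit counts both legs of an animal as separate muscles. The table gives no detection calls. Fits with the animal as a block were alternatives: the study injected the contralateral leg with the scramble virus, and arrays with the same animal number in their column names were paired. Deviations from the group means correlated at 0.003, -0.001, 0.135 and 0.087 within animals A to D. GEO's replicate numbers were not matched to columns and were not used. The script was tested on simulated data.

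Genes were named where p was under 0.05, where groups did not overlap, where fold changes were the 3 highest or lowest, or from a fixed list of standard markers. The members and lists were chosen with earlier results of these data known. Sequences of 7 promoters, of the hairpins and of the probes were not used here.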

Additional observations from a re-analysis of the deposited data

Results flagged for a closer look

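In 7 of 116 groups of 4 arrays the highest or lowest array lay further from the others than the 95% critical value of Dixon's test, on the gap over the range, allows, and chance gives about 1 in 20. *Ccnd1* read 7.21 in the scrmb muscle of animal B and 7.53 to 7.56 in the other scrmb muscles. *Ccnd2* read 8.83 in the MYTHO-KD muscle of animal A and 7.69 to 7.88 in the others. *Rb1* read 10.01 in the scrmb muscle of animal D and 10.50 to 10.57 in the others. *Mcm7* read 8.96 in the MYTHO-KD muscle of animal D and 8.59 to 8.64 in the others. *Cdkn2d* read 6.10 in the scrmb muscle of animal B and 6.78 to 6.90 in the others. D230025D16Rik read 8.80 in the MYTHO-KD muscle of animal C and 8.08 to 8.20 in the others, so the targeted gene was lowered least in that muscle. The mean of the replicative helicase and clamp genes was 7.506 in the scrmb muscle of animal C and 7.194 to 7.24 in the other scrmb muscles.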

How the results depend on the processing

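Across 22 alternatives, 749 of 784 values of the 37 genes kept their sign, 35 reversed in 14 genes, and no gene of the 37 passed an adjusted p of 0.05. None passed one of 0.1 in the unblocked fit of all arrays. The replicate block changed no call of the 37 genes at an adjusted p of 0.05. *Ccnd1* had an unadjusted p under 0.05 in 22 of 22 alternatives, *Mcm4* in 17 and *Cdkn2c* in 7. Leave-one-out fits here drop 1 array or both arrays of an animal, and the latter was chosen after seeing the data. The count of genes higher at an unadjusted p under 0.05 (2) was 1 to 4 in leave-one-out fits. The count lower (1) was 0 after quantile normalization, after median centring, among the upper 50% of probe sets, without saturated probe sets, with array weights and with the replicate block by animal, and 0 to 4 in leave-one-out fits. A fold minimum of 1.5 gave 1 gene, *Ccnd1*. Genes without overlap were 2 higher and 0 lower under quantile normalization and median centring, 0 lower among the upper 75% and upper 50% (28 and 16 genes kept), and 1 to 4 higher and 1 to 6 lower in leave-one-out fits.

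Of the 120 further genes, the count higher (5) was 8 under quantile normalization, 9 under median centring, 3 with trend and robust eBayes and 4 to 11 in leave-one-out fits. The count lower (4) was 1, 2, 1 and 2 under median centring, the upper 75%, the upper 50% and the replicate block, and 0 to 10 in leave-one-out fits. The median of the 37 genes was -0.085 to 0.083 in leave-one-out fits. *Cdkn1b* was -0.00543 with array weights and *Rb1* -0.0867 as the mean of its probe sets. In leave-one-out fits, values of both signs occurred for *Cdk4* (-0.0133 to 0.22), *Ccne2* (-0.207 to 0.0733), *Cdk2* (-0.04 to 0.547), *Cdkn1b* (-0.0892 to 0.168), *Rb1* (-0.0917 to 0.227), *Mcm5* (-0.254 to 0.00583), *Mcm6* (-0.363 to 0.01), *Rrm2* (-0.07 to 0.378), *Ccnb1* (-0.58 to 0.0333), *Cdk1* (-0.37 to 0.01), *Bub1* (-0.25 to 0.197), *Aurkb* (-0.493 to 0.0467), *Plk1* (-0.283 to 0.443) and *Mki67* (-0.0433 to 0.307). For *Cdk4*, *Ccnb1*, *Cdk1* and *Aurkb* the sign changed only when both arrays of an animal were dropped. The cause was not tested. The table gives no detection calls, so whether dim genes such as *Cdk1* and *E2f1* were above background is unknown here.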
